A study of Mus musculus with 3 samples.

Results

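Genes of tumor necrosis factor (TNF) and of the feedback loop on nuclear factor kappa B (NF-kB) were examined in cultured mouse biliary epithelial cells (BECs), the cells that line bile ducts. The members were taken by name: the ligand *Tnf*, its receptors *Tnfrsf1a* and *Tnfrsf1b*, the receptor-bound ligase *Birc3*, the inhibitors *Nfkbia*, *Nfkbie* and *Tnfaip3*, and the subunits *Nfkb1*, *Nfkb2* and *Relb*. Of these 10 genes, 9 had a probe under their symbol in the platform annotation, among 19321 symbols on the array. *Nfkb1* matched no probe by symbol and is not analysed here. Each of the other 9 had 1 probe.

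The 3 conditions were each hybridised to 1 one-colour 3D-Gene array: control BECs, BECs kept in serum depleted medium, and BECs treated with 200 μM glycochenodeoxycholic acid (GCDC), a conjugated bile acid. Donors were female BALB/c mice, 8 weeks of age, and the medium described for the cultures held forskolin, insulin and EGF beside 10% Nu-serum. Both treatments lasted 4 to 7 days by the labels, and 7 days by the description of the array comparison, and were used to induce cellular senescence, and the RNA on an array was a pool from 2 separate experiments. With 1 array per condition no spread between replicates can be given, no test was made, and no p-value is reported. Precision is limited by this number of arrays.

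TNF binds its receptors at the cell surface, and the receptor complex activates the IkB kinase (IKK), which marks IkB proteins for destruction. Freed NF-kB dimers then enter the nucleus and switch on inflammatory genes, among them the genes of their own inhibitors, so that the signal limits itself. In the bile duct, TNF is known as a product of immune cells around inflamed ducts, and cholangiocytes respond to it and can make it themselves.

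A level is the deposited intensity of a probe, less the mean of the blank spots, on a scale where the median of an array is 25. A probe not more than 2 SD of the blanks above them has no deposited level. All 9 members were above this limit on all 3 arrays, at 15.5 SD or more above the blanks, so that no bound was needed. Genes are said to have risen or fallen where the ratio to control passed 2-fold.

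In serum depletion 4 of the 9 members fell (*Tnfrsf1a*, *Tnfaip3*, *Tnf* and *Nfkb2*) and 1 rose (*Nfkbia*). Over all 19809 probes with a level on both arrays, 11.1% fell and 13.5% rose. In GCDC 3 members fell (*Tnfrsf1a*, *Tnf* and *Tnfaip3*) and *Nfkbia* rose, beside 8.5% of 20087 probes that fell and 12.9% that rose. The median log2 ratio of the 9 members was -0.80 in serum depletion and -0.52 in GCDC, against 0.16 and 0.24 for all probes. Both comparisons share the control array, so the agreement of their directions is not independent. Without scaling between the arrays 6 members fell in serum depletion and 5 in GCDC, and none rose. In that setting 3912 of 19809 probes fell and 1170 rose in serum depletion, and 4384 of 20087 fell and 607 rose in GCDC. After quantile normalization, and after cyclic loess, 4 members fell in each treatment and none rose. Of all probes 2878 fell and 1565 rose in serum depletion after quantile normalization, and 2272 fell and 1390 rose in GCDC. After cyclic loess 2567 of 19530 probes fell and 1682 rose in serum depletion, and 2188 fell and 1273 rose in GCDC.

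**Figure D1:**
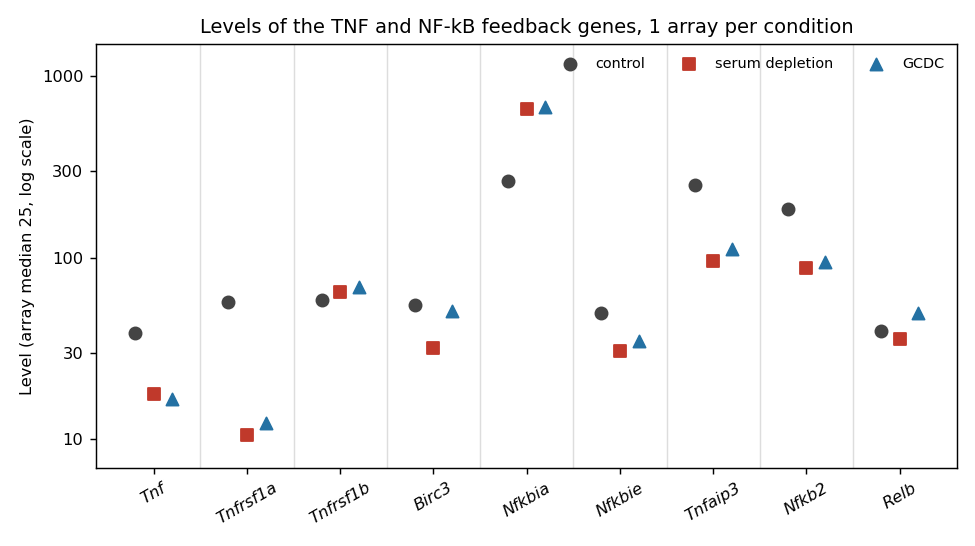
Level of each of the 9 genes on the control (circles), serum depletion (squares) and GCDC (triangles) arrays, on a log axis, where the median of an array is 25. Each point is 1 probe on 1 array, without error bars because there is no replicate. *Tnf*, *Tnfrsf1a*, *Tnfaip3* and *Nfkb2* lie lower on both treated arrays than on the control array, and *Nfkbia* lies higher.

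*Tnf*, the ligand, lies on mouse chromosome 17 (GRCm38.p6, chr17:35199367-35202007, minus strand). Its level was 38.5 on the control array, 17.7 in serum depletion and 16.6 in GCDC. The control array was the highest, and the treated arrays differed by 1.07-fold. The ratios to control were 0.459 and 0.431, or -1.12 and -1.21 on the log2 scale. Of all probes, 9.56% had a log2 ratio as low in serum depletion and 6.23% in GCDC. The scanner intensities behind these levels were 118.3, 79.8 and 69.7, with blank means of 55.7, 58.7 and 52.5. The fall in serum depletion was less than 2-fold when arrays were scaled on the probes valid on all arrays (-0.97), and both ratios were smaller (-0.39 and -0.44) under normexp, a model-based background correction, followed by quantile normalization.

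Macrophages are the classical source of TNF. Of 14 macrophage markers 10 had a level on both arrays in serum depletion and 11 in GCDC, and none of these rose or fell. The summed level of the list was 1599.7 on the control array, 2419 in serum depletion and 2962 in GCDC. *Adgre1*, which encodes the macrophage antigen F4/80, was not above the limit on any array, and *Ptprc*, the pan-leukocyte antigen CD45, was at 2.62, 1.8 and 2.5, near the background. Other markers had clear levels on all arrays: *Cd68* was at 42.5, 43.8 and 63.5, and *Csf1r* at 42.1, 45.1 and 52.2. *Tyrobp* was at 10.0, 15.5 and 11.2, and *Fcer1g* at 10.9, 12.4 and 13. *Cd14*, at 1469, 2278 and 2792, made up most of the sum. The 6 measured cholangiocyte markers, with *Krt7*, *Krt19* and *Epcam* among them, were valid on all arrays. None of the 6 rose or fell in serum depletion, and *Krt19* alone rose in GCDC, from 13440 to 27743 (log2 ratio of 1.05). Their median log2 ratios were 0.10 and 0.57.

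*Tnfrsf1a* (chr6:125349723-125362483, plus strand) encodes TNFR1, the receptor found on most cells, which carries a death domain. Its level was 56.8 on the control array, 10.6 in serum depletion and 12.3 in GCDC. In the deposited levels this was the largest change of the 9 members, with levels 5.36-fold and 4.62-fold lower than control (log2 ratios of -2.42 and -2.21). Ratios as low were found for 1.89% of probes in serum depletion and 1.43% in GCDC. With normexp the log2 ratios were -0.90 and -0.87, within 2-fold. *Tnfrsf1b* (chr4:145212368-145246870, minus strand) encodes TNFR2, which has no death domain and is activated best by membrane-bound TNF. It was at 58.6, 65.1 and 69.1, with log2 ratios of 0.15 and 0.24, next to the medians of all probes. Without scaling its log2 ratios were -0.29 and -0.41, and in serum depletion the sign also changed when the ratios were centred on the median of all probes (-0.01). The log2 ratio of *Tnfrsf1a* thus lay below that of *Tnfrsf1b* in both treatments, a difference within each array that scaling by a constant does not change, and that was not tested.

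*Birc3* (chr9:7847468-7873205, minus strand) encodes cIAP2, a ubiquitin ligase recruited to the TNF receptor complex and a target gene of NF-kB. Its level was 55.1 on the control array, 31.7 in serum depletion and 51.0 in GCDC. Neither ratio passed 2-fold, with log2 values of -0.80 and -0.11, except in serum depletion without scaling (-1.24). The treated arrays lay 1.61-fold apart, the widest gap between the treatments among the 9 members, and 13.6% of all probes had a gap as wide.

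**Figure D2:**
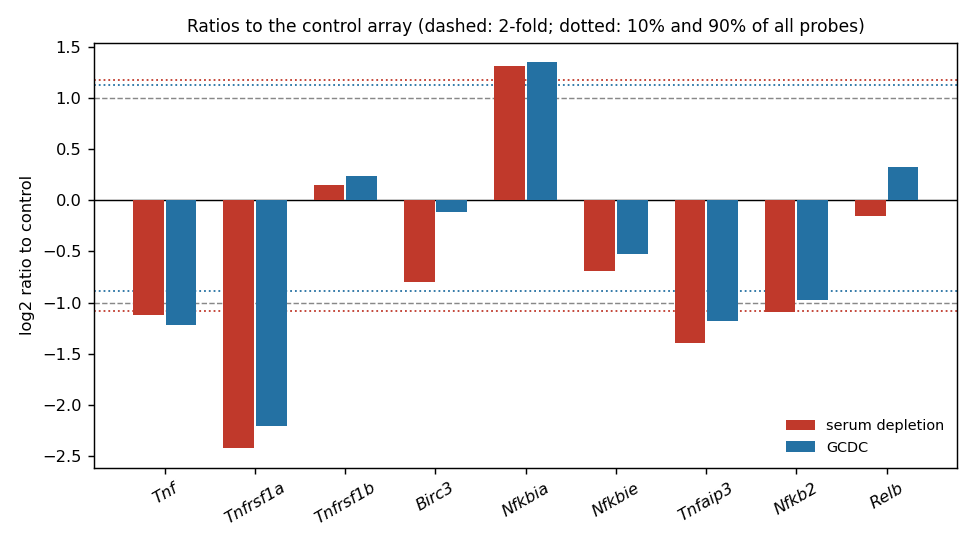
Log2 ratio of each gene to the control array in serum depletion (red) and GCDC (blue), 1 probe and 1 array each. Dashed lines mark 2-fold and dotted lines the lowest and highest 10% of all probes in the treatment of that colour. *Tnfrsf1a* reaches -2.42 and -2.21, and *Nfkbia* is the only member above 2-fold.

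*Nfkbia* (chr12:55489409-55492647, minus strand) encodes IkB-alpha, the inhibitor that holds NF-kB dimers in the cytoplasm and is rebuilt after each round of signalling. It was the only member that rose. Its level was 264.6 on the control array, 655.8 in serum depletion and 674.8 in GCDC, which is 2.48-fold and 2.55-fold of control. The treated arrays differed by 1.03-fold. Ratios as high were found for 7.73% of probes in serum depletion and 6.04% in GCDC. The rise depended on the scaling: the log2 ratios of 1.31 and 1.35 became 0.86 and 0.85 after quantile normalization, 0.78 and 0.75 after cyclic loess, and 0.86 and 0.70 without scaling, and with normexp it was under 2-fold as well, so that it passed 2-fold under 6 of the 10 other settings and kept a positive sign under all 10.

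*Nfkbie* (chr17:45555700-45563169, plus strand) encodes IkB-epsilon, a related inhibitor that is also induced by NF-kB and acts later. Its level went the other way, from 49.9 on the control array to 30.8 and 34.7. The log2 ratios of -0.70 and -0.52 did not pass 2-fold, except without scaling (-1.14 and -1.17).

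*Tnfaip3* (chr10:19000910-19015410, minus strand) encodes A20, a ubiquitin-editing enzyme that shuts off signalling upstream of IKK. Its level was 251.8 on the control array, 96.0 in serum depletion and 111.2 in GCDC, 2.62-fold and 2.26-fold lower. The log2 ratios were -1.39 and -1.18. *Tnfaip3* was the only member that stayed past 2-fold in both treatments under all 10 other settings of scaling, background, validity and source. Its log2 ratios there lay between -1.84 and -1.23 in serum depletion and between -1.83 and -1.11 in GCDC. *Tnfrsf1a* missed this under normexp alone (-0.90 and -0.87), and was at -2.14 or lower in both treatments under the 9 others. The offset added to intensities with normexp shrinks the log2 ratios of dim probes most. The control level of *Tnfrsf1a* was 56.8, against 251.8 for *Tnfaip3*. *Nfkbia* and *Tnfaip3*, both feedback inhibitors of the pathway, thus had log2 ratios of opposite sign on both treated arrays.

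*Nfkb2* (chr19:46300994-46312400, plus strand) encodes p100, which acts as an inhibitor and is cut to the subunit p52 in the noncanonical pathway. Its level was 186.1 on the control array, 87.4 in serum depletion and 94.5 in GCDC. The log2 ratio was -1.09 in serum depletion, just past 2-fold, and -0.98 in GCDC, just short of it. These were the members closest to the limit, and scaling moved both across it. *Relb* (chr7:19606217-19629438) encodes the partner of p52. It was at 39.5, 35.6 and 49.6, with log2 ratios of -0.15 and 0.33, each of which changed sign under 1 of the 10 settings.

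The bases before the start of transcription are shown for the inhibitor genes and *Nfkb2*, since their levels moved in different directions while all hold a match to the kB consensus, the binding sequence of NF-kB dimers. The 130 bases before an annotated RefSeq start (GRCm38.p6) are written 5′ to 3′ along the gene, with kB matches on either strand in capitals.
*Nfkbia*, chr12:55492648-55492777, minus strand: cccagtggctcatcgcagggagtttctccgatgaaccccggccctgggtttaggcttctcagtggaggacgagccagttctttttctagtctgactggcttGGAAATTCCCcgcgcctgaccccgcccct
*Tnfaip3*, chr10:19015411-19015540, minus strand: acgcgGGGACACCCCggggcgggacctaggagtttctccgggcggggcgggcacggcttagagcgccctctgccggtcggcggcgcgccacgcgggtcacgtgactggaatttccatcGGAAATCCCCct
*Nfkb2*, chr19:46304607-46304736, plus strand: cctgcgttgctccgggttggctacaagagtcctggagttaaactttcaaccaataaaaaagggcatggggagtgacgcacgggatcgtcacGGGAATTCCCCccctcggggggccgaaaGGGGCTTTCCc
*Nfkbie*, chr17:45555570-45555699, plus strand: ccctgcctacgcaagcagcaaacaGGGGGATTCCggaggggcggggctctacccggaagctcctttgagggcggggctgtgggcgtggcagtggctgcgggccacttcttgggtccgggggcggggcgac

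The match of *Nfkbia* begins 29 bases before the start, those of *Tnfaip3* 125 and 12 bases before it, and that of *Nfkbie* 106 bases before it. *Nfkb2* has 3 matches before this start, of which those at 39 and 38 bases overlap and share 9 letters, and the third begins 11 bases before it. The consensus was searched on both strands of the 250 bases before each start. It was found in 3.90% of 32851 promoters, or for 4.46% of 27025 genes at any start. Among the members, promoters were matched for 8 genes, and 4 of these genes held a match at 1 or more of their starts. These 4 genes are the ones shown, and their log2 ratios in serum depletion ran from -1.39 to 1.31. *Tnfaip3* has 2 annotated starts, and the one not shown has no match. For *Nfkb2* 3 starts were searched, and each has 1 or more matches. Its annotated span begins before these starts, at 46300994, and the bases before that position were not searched. *Tnf*, *Birc3*, *Tnfrsf1a* and *Tnfrsf1b* had no match in this window, which says only that these letters are not in it. *Relb* and *Nfkb1* are named only. A match in a sequence is a description and does not show that NF-kB was bound there.

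No member differed more than 2-fold between serum depletion and GCDC, while 5.04% of 19751 probes did. In the deposited levels the ratio of serum depletion to GCDC was below 1 for 8 of the 9 members. Its log2 value ran from -0.69 for *Birc3* and -0.48 for *Relb* to 0.09 for *Tnf*, against a median of -0.08 over all probes. The share of all probes below 1 was not computed, and the count depends on the scaling. Without scaling, *Tnf*, *Nfkbia*, *Nfkbie*, *Nfkb2* and *Tnfrsf1b* were higher in serum depletion than in GCDC relative to control. *Birc3*, *Relb*, *Tnfaip3* and *Tnfrsf1a* were lower, the last of these by little. The median absolute difference was 0.17 for the members and 0.28 for all probes.

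Each member rests on 1 probe, and probes of the same gene often differed on these arrays. Among 988 genes with more than 1 measured probe in serum depletion, the log2 ratios of a gene's probes spanned a median of 0.70, and for 34.9% of genes they spanned more than 1. In GCDC the median span was 0.66 over 1018 genes, and 31.3% spanned more than 1. Falls were also more frequent among long genes. In serum depletion 4.82% of probes fell in the shortest 20% of genes by span, up to 5.42 kb from end to end, and 16.6% in the longest 20%. In GCDC these shares were 2.90% and 14.4%. *Tnf* spans 2.64 kb and *Nfkbia* 3.24 kb, and *Nfkb2*, *Tnfrsf1a* and *Tnfaip3* span 11.4, 12.8 and 14.5 kb. In the 20% next to the shortest, which holds *Nfkb2* and *Tnfrsf1a*, 7.31% of probes fell in serum depletion and 5.57% in GCDC. In the middle 20%, with *Tnfaip3*, 11.7% and 7.97% fell. *Relb*, *Birc3* and *Tnfrsf1b*, the longest members, span 23.2, 25.7 and 34.5 kb. In the deposited levels they were within 2-fold in both treatments, as was *Nfkbie* at 7.47 kb. The part of gene length in the members' ratios was not tested.

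**Figure D3:**
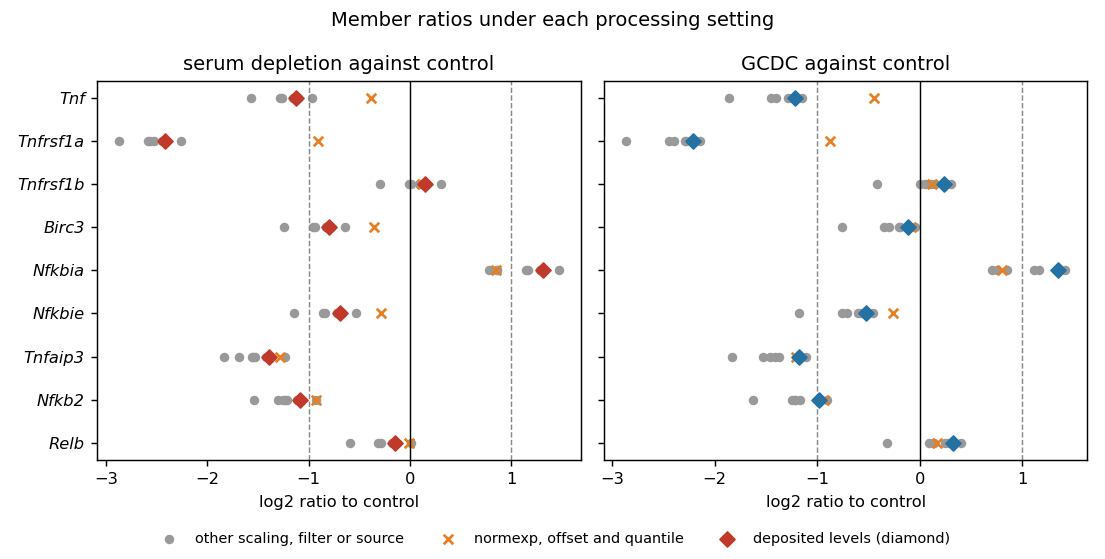
Log2 ratio of each gene to control under the deposited levels (diamonds), under 9 other settings (grey points) and under normexp followed by quantile normalization (crosses), for serum depletion (left) and GCDC (right). *Tnfaip3* stays beyond -1 throughout, while *Nfkbia* ranges from 0.78 to 1.47 in serum depletion and from 0.70 to 1.42 in GCDC.

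Around the members, 8 lists held 136 other genes of the pathway, and 131 were on the array, a gene with several probes being given by the probe with the highest mean level. In serum depletion 16 of 115 measured genes rose and 19 fell, 13.9% and 16.5%. In GCDC 10 of 117 rose and 15 fell, 8.55% and 12.8%. These counts hold *Adam17* as a rise, although its probes disagreed. Without it 15 of 114 genes rose and 19 fell in serum depletion (13.2% and 16.7%), and 9 of 116 rose and 15 fell in GCDC (7.76% and 12.9%). With *Adam17* by its other probe 15 rose and 20 fell in serum depletion, and 9 rose and 16 fell in GCDC. All these counts hold *Adam10* as within 2-fold by its brighter probe, although its other probe rose in both treatments. With *Adam17* counted as a rise, the median log2 ratios of these genes were 0.15 in serum depletion and 0.06 in GCDC. The shares of falls were above those of all probes, and the shares of rises were close to them in serum depletion and below them in GCDC.

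The list counts take genes with a level on both arrays, and a gene with a level on 1 array only is given as a bound, from the lowest valid level of the other array. Each count stands beside 11.1% of all probes that fell and 13.5% that rose in serum depletion, and 8.5% and 12.9% in GCDC. Of 13 TNF family ligands measured in each treatment none fell, but *Eda*, the ligand ectodysplasin A, was at 2.87 on the control array and not valid in serum depletion, at least 2.05-fold lower, and *Tnfsf9*, the ligand of 4-1BB, rose in serum depletion alone (1.09, against 0.93 in GCDC). The medians were 0.33 and 0.20. In the other genes of the TNF receptor family 4 of 22 fell and 3 rose in serum depletion, and 3 of 21 fell and none rose in GCDC. *Tnfrsf21*, the death receptor DR6, went from a level of 152.3 to 9.2 and 17.5, with log2 ratios of -4.05 and -3.12. *Tnfrsf22*, a mouse decoy receptor for TRAIL, went from 123.1 to 22.5 and 28.8, and *Eda2r*, a receptor of ectodysplasin A2, from 30.3 to 9.1 and 11.6. *Tnfrsf25*, the death receptor DR3, was at 2.42 on the control array and not valid in GCDC, at least 2.02-fold lower. The medians of this list were 0.09 and -0.02.

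Of 5 genes of TNF shedding, *Timp3*, an inhibitor of the sheddase ADAM17, rose from 486.2 to 2245 and 1031, log2 ratios of 2.21 and 1.08. The sheddase gene *Adam17* had probes that disagreed. The brighter probe went from 162.1 to 589.7 and 447.8 (1.86 and 1.47), and the other from 76.2 to 6.7 and 9.8 (-3.51 and -2.96). Hence no direction can be given for *Adam17*.

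In the receptor complex 5 of 18 genes fell in serum depletion and 3 in GCDC, and none rose, with medians of -0.37 and -0.27. Of all probes 11.1% and 8.5% fell. The falls in serum depletion include *Cflar* by its brighter probe (-1.39, and -0.57 in GCDC). Its other probe was within 2-fold in both treatments (-0.18 and 0.74). *Xiap*, an inhibitor of caspases, was at 25.2, 4.1 and 3.9 (-2.62 and -2.69). *Map3k7*, the kinase TAK1 that activates IKK, was at 78.5, 19.4 and 27.2 (-2.02 and -1.53) by the brighter of its 2 probes. The other was at 2.50 on the control array, not valid in serum depletion, at least 1.79-fold lower, and at 1.8 in GCDC (-0.47), within 2-fold. *Fadd*, the adaptor that recruits caspase 8, was at 31.0, 8.7 and 15.3 (-1.83 and -1.02). Of 6 IKK and upstream kinases 2 fell in serum depletion and 1 in GCDC. *Ikbkg*, the regulatory subunit NEMO, fell in both, from 63.8 to 20.8 and 15.5 (-1.62 and -2.04). *Ikbkb*, the catalytic subunit IKK-beta, had log2 ratios of -0.89 and -0.73, within 2-fold.

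Of 7 other NF-kB and IkB genes, *Bcl3*, a nuclear IkB protein, fell from 35.8 to 8.6 and 10.1 (-2.06 and -1.83), and *Nkiras1*, a small GTPase that binds IkB proteins, rose from 43.7 to 128.9 and 168.5 (1.56 and 1.95). The main activating subunit *Rela* was at 195.5, 115.5 and 105.5, within 2-fold (-0.76 and -0.89). Of 15 other brakes on the pathway, 2 rose and 2 fell in serum depletion, and 1 rose and 2 fell in GCDC. *Zfp36*, which encodes tristetraprolin, a protein that destabilises *Tnf* mRNA, went from 46.9 to 6.3 and 8.0 (-2.89 and -2.55). *Itch*, a ubiquitin ligase that works with A20, went from 45.2 to 7.2 and 7.9, and *Rnf11*, another partner of A20, rose from 666.6 to 1489 and 1932. The deubiquitinase gene *Cyld* and the A20-binding gene *Tnip1*, named here after their values were seen, were within 2-fold in both treatments, at -0.11 and -0.33 and at 0.07 and -0.11.

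Of the other target genes of NF-kB, 6 of 29 rose and 5 fell in serum depletion, and 6 of 32 rose and 5 fell in GCDC, with medians of 0.32 and 0.09. *Ccl2*, the monocyte chemoattractant, and *Ccl20*, a ligand of CCR6, had the largest measured rises, with log2 ratios of 4.63 and 3.34 and of 2.92 and 2.09. *Ccl7*, another monocyte chemokine, was not valid on the control array and at 32.6 and 13.5 on the treated arrays, at least 32.6-fold and 13.5-fold higher. *Il6*, the cytokine interleukin 6, was at 3.82 on the control array and not valid in serum depletion, at least 2.73-fold lower, and fell in GCDC to 1.5 (-1.35). *Bcl2l1*, the survival gene of BCL-XL, fell, with -2.49 and -1.95. The study itself singled out *Ccl2* and *Ccl20* on these arrays, so their rises are no independent support. Target genes of NF-kB thus stood on both sides of 2-fold, as the members did.

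**Figure D4:**
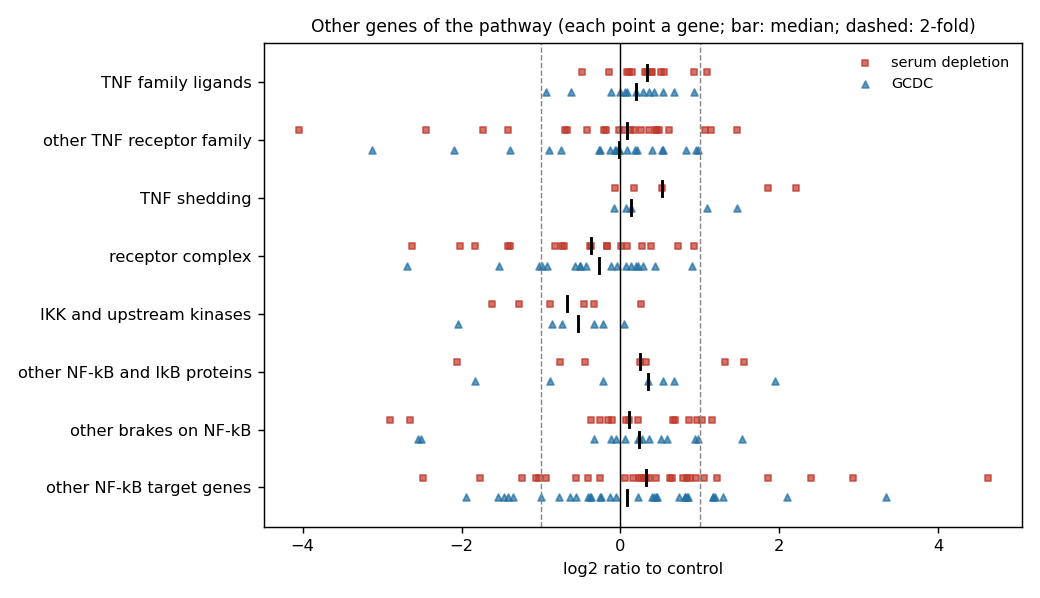
Log2 ratio to control of the other genes of the pathway, in 8 lists, for serum depletion (red squares) and GCDC (blue triangles). Each point is 1 gene, by its brightest probe (for *Adam17* the probe that rose), and the black bar is the median of the list, which is lowest for the IKK and upstream kinases, at -0.67 and -0.53.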

How the data were processed

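The authors hybridised Cy5-labelled RNA to 3D-Gene 24k oligo chips, scanned them and deposited the scanner output and a table of processed intensity. Per the methods the mean of the blank spots was subtracted and intensities above 2 SD of the blanks were valid. The deposited intensity was scaled to a median of 25, as found by setting the table against the scanner output, and treated arrays are given to 1 decimal. Using blanks between the 5th and 95th percentiles, with gene spots marked by the scanner left out, the valid probes matched the table on all 23473 gene probes. Valid probes made up 86.1% to 89.2% per array.

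Members were matched by platform symbol (20690 probes had 1, 2783 none), and their probe, levels and log2 ratios came from the deposited table. The members and gene lists were chosen with earlier results of these data known. Besides the members, up to 3 genes of each pathway list were named, those with the largest mean absolute log2 ratio past 2-fold in both treatments, and others, such as to spell out a count, were named after their values were seen. Marker lists covered cholangiocytes, macrophages, lymphocytes, mesenchymal cells, endothelial cells and hepatocytes. Gene positions and promoters came from RefSeq (GRCm38.p6), and 88.4% of measured probes had a gene length. Alternatives were recomputed levels, no filter, a limit of 5 SD, 5 other scalings, normexp with an offset of 50, ratios centred on the median and *Adam17* left out or by its other probe (both chosen after seeing the data) and thresholds of 1.5-fold and 4-fold. The steps were tested on simulated data. Python 3.11.15, numpy 2.4.6, pandas 2.3.3, matplotlib 3.10.9, R 4.3.3 and limma 3.58.1 were used.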

Additional observations from a re-analysis of the deposited data

How the results depend on the processing

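Of 180 member ratios recomputed under 10 other settings, 157 kept their side of 2-fold, 15 of the called ones no longer passed it, 8 newly passed it, and no called ratio changed sign. Members past 2-fold in serum depletion numbered 3, in place of 5, when arrays were scaled on the probes valid on all arrays. Of all probes 5354 passed 2-fold there, 1805 of them falls. With normexp, an offset of 50 and quantile normalization, 1 member (*Tnfaip3*) passed 2-fold in each treatment, and the counts of all probes were 1379 and 1047, against 4864 and 4303. A threshold of 4-fold left 1 member (*Tnfrsf1a*) in each treatment and 1024 and 673 probes, and 1.5-fold gave 9199 and 9008 probes. The other settings moved the median log2 ratio of all probes by -0.45 to 0.16 in serum depletion and by -0.65 to 0.07 in GCDC. Rises made up 55.0% and 60.3% of changed probes, 44.5% and 43.5% with 75th percentiles set equal, 35.2% and 38.0% under quantile normalization, 66.3% and 66.2% on probes valid on all arrays, 23.0% and 12.2% without scaling, 39.6% and 36.8% after cyclic loess, 42.5% and 42.0% with normexp, and 42.8% and 39.5% after centring, where 4 members fell and 1 rose in each treatment. Of all probes 2705 fell and 2028 rose in serum depletion after centring, and 2389 fell and 1558 rose in GCDC. Other causes were not tested. No member had more than 1 probe, so probes could not be exchanged. No paired analysis was possible because each condition had 1 array.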

Other observations

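The genes nearest to *Tnf* in both log2 ratios, among 4472 probes with a control level within 2-fold of its own and a level on all 3 arrays, were *Trappc10*, *Hyou1* and *Pigl*, at distances of 0.02, 0.06 and 0.06. Within a distance of 0.25 lay 72 probes. For *Tnfrsf1a* the nearest were *Phf3*, *Stag1* and *Nfx1*, at 0.01, 0.09 and 0.10, with 31 probes within 0.25. With 3 arrays such a likeness rests on 2 ratios that share the control.

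Summed levels of markers of other cells were 26.9, 42.7 and 31.9 for lymphocytes (control, serum depletion, GCDC), 65.5, 93.7 and 89.0 for mesenchymal cells, 40.4, 78.5 and 86.3 for endothelial cells and 202.9, 459.5 and 192.3 for hepatocytes. *Kdr*, at 20.4, 49.1 and 50.8, made up much of the endothelial sum. *Ttr*, at 36.9, 288.2 and 50.4, carried the higher hepatocyte sum in serum depletion. *Hnf4a*, at 134.9, 132.8 and 108.5, made up most of the hepatocyte sum on the control and GCDC arrays. *Serpina1a*, by its brighter probe, was at 5.92, 17.1 and 11.7, and *Alb* at 3.66, 2.3 and 3.4. Among lymphocyte markers *Ms4a1*, at 1.6, 7 and 5.3, rose in both treatments, and *Cd79a*, at 5.87, 15.9 and 6.7, rose in serum depletion. The summed levels of cholangiocyte markers were 31082, 35415 and 56907. The part of other cells in the members' ratios was not tested.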
